A study of Homo sapiens with 2 samples.

Results

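Long intergenic noncoding RNA genes carry the symbol LINC and a serial number when they lie between protein-coding genes and have no better known name. They were taken here by that name, as the rows of the gene table whose name is LINC followed by digits only and whose reads in both libraries together came to at least 20. Of 967 rows with such a name, 607 had no read, 210 had 1 to 19 reads and 150 met the rule, among 17915 genes of 56303 that met the same read minimum. NORAD, which once was LINC00657, is listed in the table as NORAD, so the name pattern did not take it, and it is given beside the members. At the edge of the rule, LINC00972 (10 IP and 10 Input reads), LINC00441 (2 and 18) and LINC00402 (12 and 8) were just inside with 20 reads each. LINC01176 (15 and 4) and LINC01607 (6 and 13) were just outside with 19.

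The libraries came from HUH7, an established human hepatocellular carcinoma cell line. RNA recovered with an antibody against ZMAT2 (the IP) was set against RNA of the lysate (Input), with 1 library in each group. ZMAT2 is a zinc-finger protein of the spliceosome, and the stated aim was to learn whether it acts on this cancer through splicing. The rabbit IgG control of the protocol was not analysed here, so RNA held by ZMAT2 and RNA held by the beads or by any antibody cannot be told apart.

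Long intergenic noncoding RNAs are made by RNA polymerase II and are usually capped, spliced and given a poly(A) tail, as mRNAs are. Some stay at their own locus and act on neighbouring genes, others work as scaffolds or decoys for proteins in the nucleus or the cytoplasm, and many have no known role. A number of genes first given a LINC name were later found to encode short proteins and have been renamed. Because most of these genes are expressed at low levels, depth limits what a count can show.

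Gene counts summed to 25047635 reads for the IP and 23485789 for Input. The hepatocyte genes ALB (117214 IP and 170426 Input reads) and AFP (33416 and 59174) were abundant, as the cell line's label requires. Markers of other cell types ranged from COL1A1 with no read in either library and PTPRC with 0 and 1 to PECAM1 with 252 and 341. The ratio of each gene is the log2 ratio of IP over Input after scaling by trimmed mean of M values (TMM), with its 95% interval from counting error alone. A gene was called higher or lower when the libraries differed 2-fold or more and the interval did not reach 0. There was no replicate, so no test between groups was possible and every difference is one between these 2 libraries. Both mates of a fragment were probably counted, each as 1 read (77.9% of IP counts and 67.1% of Input counts from 1 to 6 are even), which makes the intervals too narrow. Calls on pairs of reads are therefore given as well.

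The 150 LINC-named genes had a median log2 ratio of -0.19 (quartiles -0.65 and 0.42), against 0.0059 over all genes kept. The 95% order-statistic interval of the members' median, which takes genes as independent, ran from -0.32 to 0.01 and so included the all-gene median. The 685 other RefSeq lncRNA genes had a median of -0.09. The 491 antisense-named genes, of which 468 are among those 685, had one of -0.08. Of the members, 10 were called higher (6.67%) and 16 lower (10.7%), where 7.41% of all genes kept were called higher and 6.96% lower. The remaining 124 members all lay within 2-fold. For the other lncRNA genes the shares were 6.42% higher and 10.2% lower. The share of members called higher is thus near the share over all genes, and the share called lower is near that of other lncRNA genes. On pairs of reads, 5 members were called higher and 11 lower, against 6.18% and 5.36% of all genes.

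**Figure D1:**
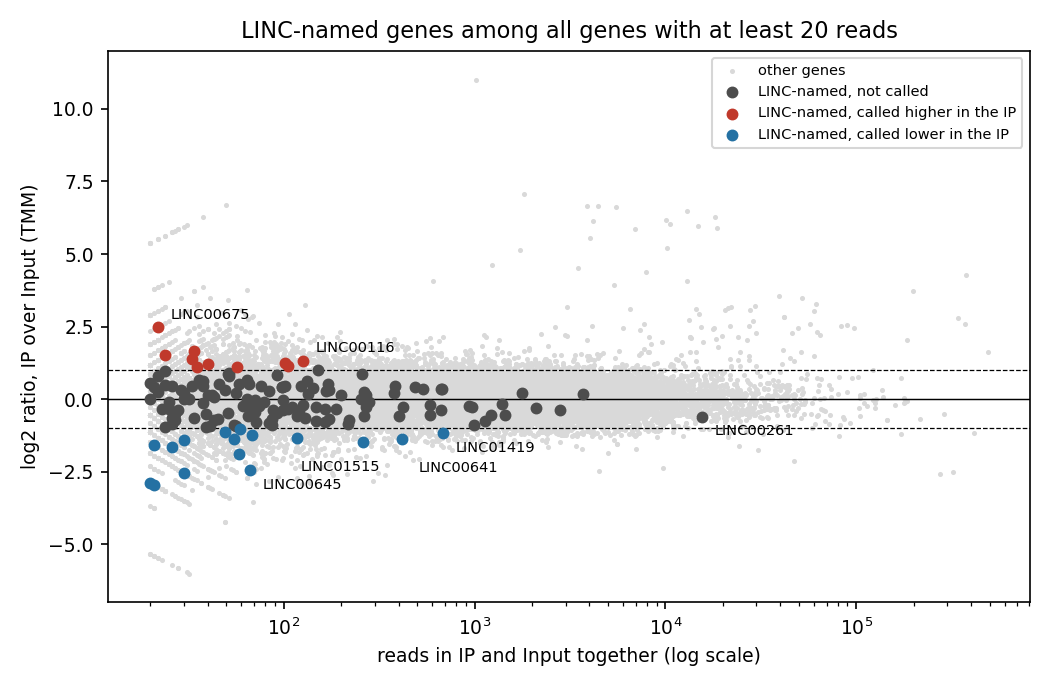
Log2 ratio of IP over Input (vertical axis) against the reads of both libraries together (horizontal log axis) for the 150 LINC-named genes and, in grey, the other genes with at least 20 reads. Dashed lines mark 2-fold. Most called members have under 100 reads, and LINC00261 stands alone at the right with a ratio of -0.60.

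Together the members took 0.0913% of the IP reads (exact 95% interval 0.0901 to 0.0924) and 0.122% of the Input reads (0.121 to 0.124). A single gene, LINC00261, held 27.0% of the members' IP reads and 33.0% of their Input reads, and the 10 members with the most reads held 60.1% and 64.4%. The summed reads, 22858 in the IP and 28674 in Input, gave a log2 ratio of -0.31. Without LINC00261 it was -0.19. No member had a count of 0 in either library. For the LINC-named genes with no read, 0 reads allows up to 3, or 0.124 counts per scaled 1e6 reads (CPM) for the IP and 0.123 for Input.

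LINC00261, on chromosome 20 at 22547671 to 22578642 (GRCh38, minus strand), is an endoderm lncRNA that neighbours FOXA2, a pioneer transcription factor of liver and other endoderm. It was counted 6176 times in the IP and 9460 times in Input, at 255.8 and 388.3 CPM. Its log2 ratio was -0.60 (-0.65 to -0.56), or 1.52-fold lower in the IP. FOXA2, whose start lies 6813 bases away, stood at 0.22 (0.09 to 0.36) on 997 IP and 861 Input reads, so the intervals of these neighbours did not overlap. The ratio of LINC00261 lay within the range of the hepatocyte marker genes, from -0.81 for AFP to 0.02 for APOA1, with ALB at -0.53. Scaled by exon length, LINC00261 had the highest level of the members, with 46.1 CPM per kb in the IP and 69.9 in Input. Next in Input came LINC01608, with 7 exon blocks in 752 bases, at 16.0 and 20.7 CPM per kb.

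The promoter sequences of 3 members that stand for different outcomes are shown here, as the 250 bases before and 50 after the annotated start in RefSeq (GRCh38.p14), 5′ to 3′ on the gene's strand. They are the most abundant member, LINC00261, the lower member with the second most reads among those called, LINC00641, and the called-higher member with the most reads, MTLN (LINC00116). The windows of LINC00261 and LINC00641 lie at the start of the counted gene row, while that of MTLN lies 32873 bases inside it. Counts of RNA do not say which start was used. Capitals mark a match on either strand. The motifs searched were the TATA box, spelled TATAAA here, the GC box, spelled GGGCGG, the sequence CCAAT of the box of that name, and TGTTTAC, a core bound by forkhead factors such as FOXA2. The motifs do not overlap one another in these windows.
LINC00261, chr20:22578593-22578892 (minus strand): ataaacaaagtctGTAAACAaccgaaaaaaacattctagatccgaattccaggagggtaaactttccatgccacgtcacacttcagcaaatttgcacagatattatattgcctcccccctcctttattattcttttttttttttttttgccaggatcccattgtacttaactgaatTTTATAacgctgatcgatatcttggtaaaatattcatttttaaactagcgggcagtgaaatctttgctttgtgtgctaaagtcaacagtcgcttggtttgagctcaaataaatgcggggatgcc
LINC00641, chr14:21206851-21207150 (minus strand): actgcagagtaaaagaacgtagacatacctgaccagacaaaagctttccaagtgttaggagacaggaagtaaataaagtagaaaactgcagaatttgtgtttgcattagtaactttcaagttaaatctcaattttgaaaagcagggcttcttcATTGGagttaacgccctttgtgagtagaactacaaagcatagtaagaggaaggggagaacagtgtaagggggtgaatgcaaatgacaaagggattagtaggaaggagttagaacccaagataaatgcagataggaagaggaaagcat
MTLN, chr2:110212498-110212797 (minus strand): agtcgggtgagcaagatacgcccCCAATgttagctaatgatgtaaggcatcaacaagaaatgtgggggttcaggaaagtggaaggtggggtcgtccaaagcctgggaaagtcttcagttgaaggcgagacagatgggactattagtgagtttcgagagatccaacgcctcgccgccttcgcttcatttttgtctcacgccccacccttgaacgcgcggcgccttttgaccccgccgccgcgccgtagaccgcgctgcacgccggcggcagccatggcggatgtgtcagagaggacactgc
The window of LINC00261 was 37% G or C with 8 CpG pairs, and it held TATAAA and TGTTTAC. That of LINC00641 was 39% with 2 CpG pairs and held CCAAT. The MTLN window was 58% with 25 CpG pairs and also held CCAAT. A match is a description of these letters and not a bound site.

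Over the 108 members with a promoter in the table, the median G and C content was 58.3%, against 58.7% over all 35116 promoters there and 64.7% over the 11309 promoters of genes with at least 20 reads. In 40 of the 108 the start of the counted row fell outside the window. TGTTTAC was in 7 of the 108 (6.48%), in 3.42% of all promoters and in 2.43% of those of genes with at least 20 reads. The CCAAT box was in 54 of the 108 windows, against 34.6% and 37.1% in the same 2 sets. The GC box was in 47.2% of the members' windows, against 45.0% and 67.8%, and the TATA box in 11.1%, against 11.5% and 6.38%. By outcome, the 10 promoters of called-lower members had a median G and C content of 42.8%, the 8 of called-higher members 55.5% and the 90 of members not called 60.2%. Members with under 100 reads had a lower median (55.3%) than those with 100 or more (61.0%), so depth moved with composition, and its part in the difference between outcomes was not tested. The 40 rows that start outside their window include called members. Among them are LINC01505 (622748 bases from the RefSeq start) and MTLN, called higher, and LINC00862 (26913 bases) and LINC01515 (1087 bases), called lower. The split by outcome may thus not describe the starts of the counted rows.

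After LINC00261, the members with the most reads stayed within 2-fold. LINC00969, now MIR570HG, the host gene of the microRNA miR-570, stood at 0.19 (0.09 to 0.28) on 1972 IP and 1747 Input reads. It has 44 exon blocks, the most of any member, and shares 24.1% of its exon bases with other genes, 11.4% with the pseudogene SDHAP2. Of the exon bases of SDHAP2, 100% lie in LINC00969 on the same strand. SDHAP2 stood at 0.37 on 1041 IP and 811 Input reads, and these reads may stand in both rows. LINC01578, now CHASERR, a lncRNA known to repress its neighbour CHD2 from the same chromosome, stood at -0.38 (-0.49 to -0.27) on 1210 IP and 1589 Input reads. LINC00963 stood at 0.20 (0.06 to 0.33) on 942 IP and 829 Input reads, and LINC00667 stood at -0.17 (-0.32 to -0.01) on 650 and 737, with 25.3% of its bases shared. LINC01446 on chromosome 7 stood at -0.54 (-0.71 to -0.38) on 493 IP and 725 Input reads. LINC01184, now SLC12A2-DT, the divergent transcript of an ion cotransporter gene, stood at -0.87 (-1.07 to -0.68) on 348 IP and 643 Input reads. Of the 10 most abundant members, only LINC00969 and LINC00963 stood above 0, and none was called.

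Further members with at least 200 reads lay on both sides of 0. Above it, LINC00680 stood at 0.34 (0.12 to 0.57) on 374 IP and 297 Input reads, and LINC00623 at 0.44 (0.15 to 0.74) on 221 and 164. Below it, LINC01608 stood at -0.37 (-0.60 to -0.15) on 291 and 380, LINC00888 at -0.55 (-0.79 to -0.31) on 236 and 348, and LINC00630 at -0.59 (-0.96 to -0.22) on 104 and 158. The intervals of these 5 excluded 0. Those of LINC00649 (273 and 314 reads, -0.19), LINC01572 (191 and 230, -0.25), LINC00355 (202 and 176, 0.21), LINC00857 (142 and 129, 0.15) and LINC00491 (127 and 128, 0.00) included it, so no difference was detectable for them at this depth.

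**Figure D2:**
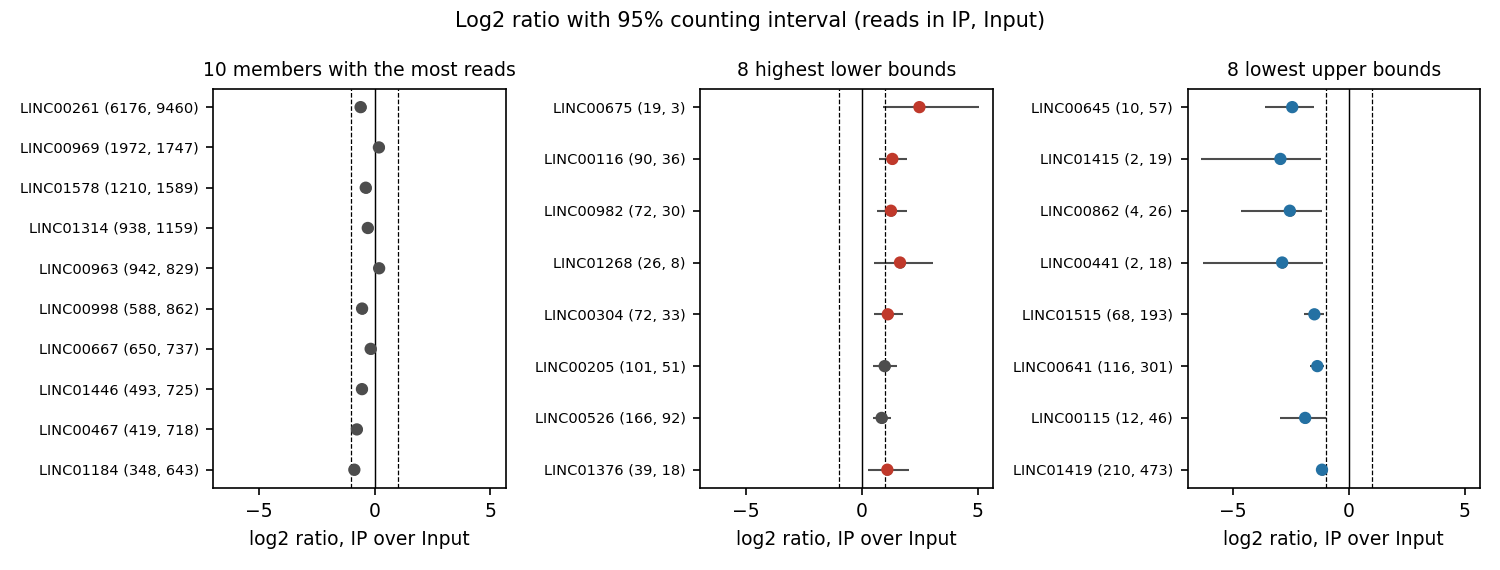
Log2 ratio of IP over Input with 95% counting intervals for the 10 members with the most reads (left), the 8 with the highest lower bounds (middle) and the 8 with the lowest upper bounds (right). Numbers after each name are reads in the IP and in Input, red points were called higher and blue points lower. The abundant members have short intervals, while intervals of the lower members with few reads, such as LINC01415 with 2 and 19, run to -6.38.

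The lower group was led in depth by 3 genes. LINC01419, reported as raised in hepatocellular carcinoma, lies on chromosome 8 at 83403758 to 83408900 with 2 exon blocks. With 210 IP and 473 Input reads it was 2.23-fold lower, at -1.16 (-1.40 to -0.92). LINC00641, on chromosome 14 at 21200079 to 21206900, also with 2 exon blocks, stood at -1.36 (-1.68 to -1.05) on 116 IP and 301 Input reads. LINC01515, on chromosome 10 at 65570338 to 65768835 with 23 exon blocks over 198498 bases, stood at -1.49 (-1.91 to -1.09) on 68 IP and 193 Input reads. None of the 3 shares exon bases with another gene. They stayed lower when counted in pairs, with upper bounds of -0.82, -0.92 and -0.92.

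Below 150 reads, LINC00471 stood at -1.34 (-1.98 to -0.76) on 33 IP and 85 Input reads. LINC00645 stood at -2.44 (-3.63 to -1.52) on 10 IP and 57 Input reads, the lowest upper bound of all members. LINC00115, with 1 exon block, stood at -1.88 (-2.98 to -0.99) on 12 IP and 46 Input reads, and it shares 6.99% of its bases with LINC01128. LINC00862 stood at -2.55 (-4.67 to -1.16) on 4 IP and 26 Input reads, and LINC01415 at -2.95 (-6.38 to -1.18) on 2 and 19. LINC00441, now RB1-DT, which starts 90 bases from the tumour suppressor gene RB1 on the other strand, stood at -2.87 (-6.31 to -1.09) on 2 IP and 18 Input reads. RB1 itself stood at -0.93 (-1.08 to -0.78) on 570 IP and 1097 Input reads. LINC01242 (15 and 40 reads) stood at -1.37 and LINC01090 (20 and 48 reads, 35.5% of bases shared) at -1.23. Lost when counted in pairs were LINC00158, LINC00106, LINC00852, LINC01138 and LINC01619, with 6 and 20, 5 and 16, 8 and 22, 15 and 34, and 19 and 40 reads.

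Higher in the IP, LINC00116, now MTLN, encodes mitoregulin, a micropeptide of the inner mitochondrial membrane tied to fatty acid oxidation. It lies on chromosome 2 at 110211529 to 110245420 and was 2.5-fold higher, at 1.32 (0.76 to 1.93), on 90 IP and 36 Input reads, with 5.31% of its exon bases shared. LINC00982, now PRDM16-DT, stood at 1.26 (0.64 to 1.94) on 72 IP and 30 Input reads. LINC00304 on chromosome 16 stood at 1.13 (0.52 to 1.78) on 72 IP and 33 Input reads. LINC01268, now MROCKI, stood at 1.65 (0.53 to 3.07) on 26 IP and 8 Input reads. LINC00675, now TMEM238L, a gene for a transmembrane protein, had 19 and 3 reads and the highest ratio of the members, 2.49 (0.91 to 5.08). These 5 were also called on pairs of reads, with lower bounds from 0.02 for LINC01268 to 0.52 for LINC00116.

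The other 5 higher members were lost on pairs. They were LINC01376 (39 and 18 reads, ratio 1.11), LINC01273 (28 and 12, 1.20), LINC00545 (24 and 11, 1.10), LINC00444 (24 and 9, 1.38) and LINC01505 (18 and 6, 1.52). LINC00545 shares 58.9% of its exon bases with an antisense gene. Just short of 2-fold, LINC00205 stood at 0.99 (0.50 to 1.51) on 101 IP and 51 Input reads. LINC00526 stood at 0.86 (0.49 to 1.25) on 166 IP and 92 Input reads, but 41.2% of its bases lie in exons of LINC00667 on the other strand. No called-higher member had 150 reads.

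By number of exons, the members ran from 1 to 44 exon blocks after overlapping exons were merged, with a median of 5. The 16 members with 1 block had a median log2 ratio of -0.37, with none called higher and 2 lower. Among all 1856 genes with 1 block the median was -0.03, and 10.5% were called higher and 15.9% lower. The 56 members with 2 to 4 blocks had a median of 0.01 and 7 calls in each direction, against 8.98% higher and 8.47% lower of all genes of that class. With 5 to 9 blocks the 51 members had a median of -0.26, 1 higher and 5 lower, against 5.5% and 6.62%. The 27 members with 10 or more blocks had a median of 0.19 and 2 calls in each direction, against 7.13% and 4.41%. The order-statistic intervals of the members' medians, -0.80 to 0.46 for 1 block, -0.35 to 0.30 for 2 to 4 and -0.43 to 0.36 for 10 or more, included the all-gene median of the class. For 5 to 9 blocks the interval was -0.49 to -0.0274, with its upper end just below the class median of -0.0263. The medians did not run in one order with exon number. Across the 150 members the ratio had a rank correlation of 0.01 with exon blocks, 0.07 with exon bases and -0.08 with the genomic span. These points share the same 2 libraries, and blocks and length also moved with the reads (rank correlations 0.19 and 0.33).

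Single-block members differed among themselves. LINC00998, now SMIM30, which encodes a small membrane protein reported to promote hepatocellular carcinoma growth, stood at -0.54 (-0.69 to -0.39) on 588 IP and 862 Input reads. LINC00526 stood at 0.86 and LINC00216, with 54 and 93 reads and 8.53% of its bases shared, at -0.77 (-1.28 to -0.27). At the other end, LINC00511 with 25 blocks over 317350 bases stood at 0.24 (-0.12 to 0.61) on 142 IP and 121 Input reads. LINC01125, now C2orf92, with 23 blocks stood at 0.46 (-0.07 to 1.01) on 71 IP and 52 Input reads. The intervals of both include 0.

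**Figure D3:**
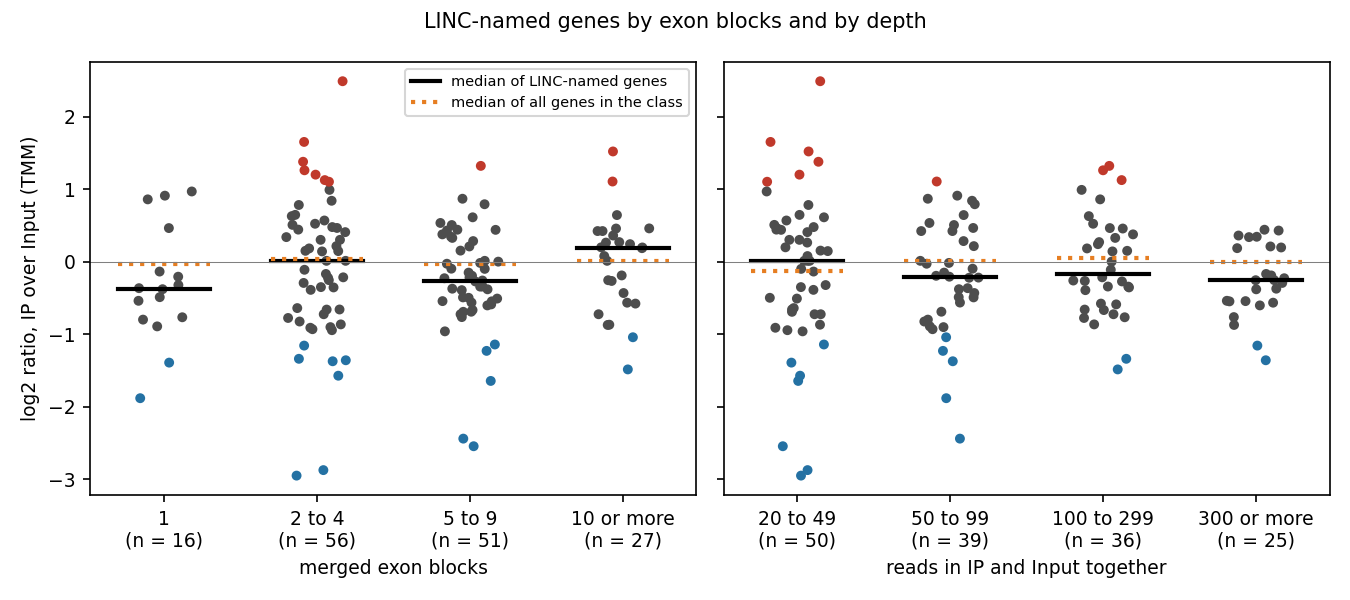
Log2 ratio of IP over Input of each LINC-named gene by merged exon blocks (left) and by reads in both libraries (right). Black lines are medians of the members, dotted orange lines are medians of all genes in the class, red points were called higher and blue points lower. The class with 1 block has its median at -0.37, and the spread narrows from left to right in the panel on reads.

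By depth, calls came mostly from genes with few reads. Of the 50 members with 20 to 49 reads, 6 were called higher and 7 lower, against 12.8% and 18.9% of all genes at that depth, and the SD of the ratio over members was 1.09. The 39 members with 50 to 99 reads had 1 higher and 5 lower, against 12.9% and 13.3%. The 36 with at least 100 but under 300 reads had 3 higher and 2 lower, against 8.93% and 7.76%. In the 25 members with 300 or more reads, none was higher, 2 were lower (LINC01419 and LINC00641) and the SD was 0.49, where 4.96% of all genes at that depth were higher and 3.08% lower. Medians in the 4 classes were 0.01, -0.21, -0.16 and -0.25 for the members and -0.12, 0.01, 0.06 and 0.00 for all genes. Of the 61 members with 100 or more reads, 3 were higher and 4 lower, against 5.75% and 4.01% of all genes. The order-statistic intervals of the members' medians, -0.50 to 0.30, -0.49 to 0.22, -0.35 to 0.27 and -0.54 to 0.19, each included the all-gene median of the class.

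RefSeq now lists 137 of the members as lncRNA genes, 10 as protein-coding and 1 as a transcribed pseudogene, and 2 names were not matched. For 32 members the match was through an older symbol, so the current symbol differed. The lncRNA genes had a median log2 ratio of -0.21 with 7 higher and 16 lower (5.11% and 11.7%). The shares were 7.41% and 6.96% over all genes kept, and 6.42% and 10.2% for other RefSeq lncRNA genes. The 10 members matched to protein-coding genes had a median of 0.39, ranging from -0.66 to 2.49, with MTLN and TMEM238L higher and none lower. Of all 12955 RefSeq protein-coding genes kept, 6.71% were higher and 4.84% lower. Among the 10, CTXND1 (LINC01314) stood at -0.29 (-0.42 to -0.17) on 938 IP and 1159 Input reads. BRD3OS (LINC00094) stood at 0.34 (0.12 to 0.56) on 374 IP and 298 Input reads, but shares 21.4% of its bases with BRD3, which stood at 0.28. SMIM26 (LINC00493), which encodes a mitochondrial small protein, stood at -0.66 (-1.21 to -0.14) on 50 IP and 80 Input reads, with 13.1% shared. The members matched to protein-coding genes thus lay on both sides of 0. Some of these rows may not measure the matched gene. LINC01336 was matched to GCNT4, which has a row of its own with 206 IP and 359 Input reads. The row of LINC00950 starts 29510 bases from the RefSeq start of its match, TMEM8B.

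A list of 9 LINC genes reported to encode micropeptides had 8 rows in the table and 5 members, with 1 higher, none lower and a median of -0.54. Besides MTLN, SMIM30 and SMIM26 it held LINC00467 (419 and 718 reads, -0.76, -0.94 to -0.59), known for a peptide that binds ATP synthase, and LINC01234 (38 and 41 reads, -0.10). A list of 13 liver-associated LINC genes had 11 rows and 5 members, with none called and a median of -0.56. Beside LINC00261, LINC01146, now HISLA and known for stabilising HIF-1α, stood at -0.56 (-0.86 to -0.27) on 162 IP and 242 Input reads. LINC00574 stood at 0.52 (0.07 to 0.99) on 100 IP and 70 Input reads. When reads were counted in pairs the intervals of LINC00574, SMIM26 and LINC00667 included 0. A list of 19 LINC genes reported in hepatocellular carcinoma had 18 rows and 11 members, with none higher, 2 lower (LINC01419 and LINC01138) and a median of 0.24. In it, LINC00152, now CYTOR, a lncRNA raised in many cancers, stood at 0.36 (0.11 to 0.61) on 302 IP and 237 Input reads. LINC00339 stood at 0.43 (0.17 to 0.70) on 278 IP and 208 Input reads, with 16.7% of its bases shared. The lists are short, and over all genes kept the median was 0.0059 with 7.41% higher and 6.96% lower.

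Position was compared next. For 15 members the nearest protein-coding gene ran away from it on the other strand with starts at most 1000 bases apart, a head-to-head arrangement. These members had a median log2 ratio of 0.30 and their neighbours one of 0.42, and 8 of the 15 members stood below their neighbour. Of the 15, 1 was called higher and 1 lower. The member's interval lay wholly below that of the neighbour in 5 couples of genes on reads, and in 2 when reads were counted in pairs, and in none wholly above. The 2 were LINC00235 with CAPN15 and LINC01089 with SETD1B. LINC00235 (30 and 35 reads) stood at -0.21 and CAPN15 at 1.57. LINC01089 (82 and 105 reads, 51.3% of bases shared) stood at -0.34 and the histone methyltransferase gene SETD1B at 1.07. LINC01547 (26 and 39 reads) stood at -0.56 and FAM207A at 0.42. LINC01547 with FAM207A, LINC01184 (-0.87) with SLC12A2 (-0.61) and LINC00441 with RB1 were apart on reads and overlapped when reads were counted in pairs. LINC00982 and PRDM16, at 1.26 and 0.64, had overlapping intervals. The 125 members with no protein-coding start within 1000 bases had a median of -0.22, with 9 higher and 15 lower. Of all genes kept, 7.41% were higher and 6.96% lower. For 95 of the 125 the nearest protein-coding gene also had at least 20 reads. In 25 of these 95 the member's interval lay wholly below the neighbour's and in 11 wholly above, or 16 and 5 on pairs. Some members have the same neighbour, such as CEBPB for LINC01270 and LINC01271. How often any gene stands apart from its nearest protein-coding neighbour was not computed. These counts and those of the head-to-head couples therefore cannot be read as particular to LINC-named genes. In 10 more members the start lay within 1000 bases in another arrangement, with a median of -0.19 and none called. Differences between these classes were not tested.

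**Figure D4:**
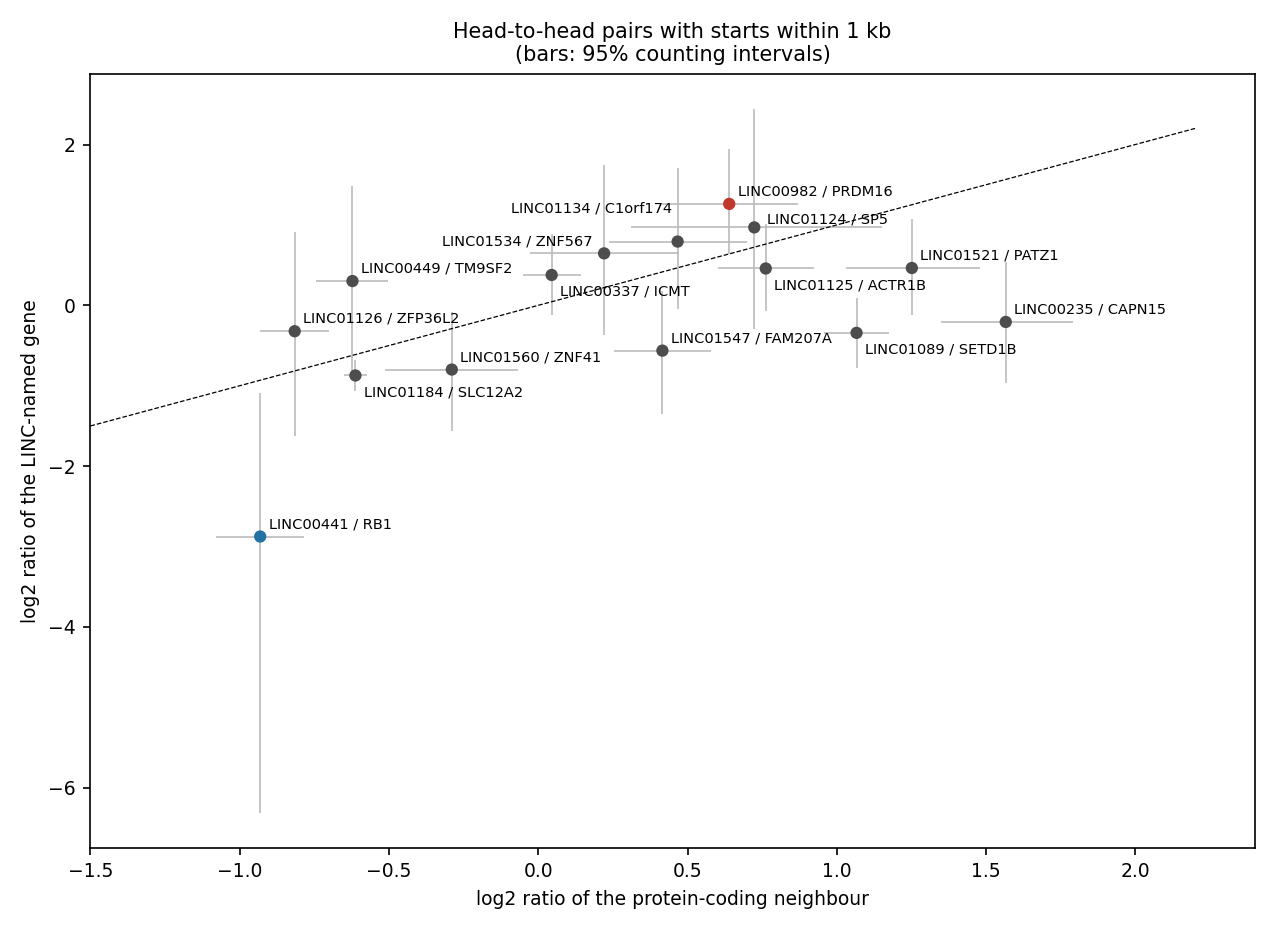
Log2 ratio of each LINC-named gene (vertical axis) against that of its head-to-head protein-coding neighbour (horizontal axis) for the 15 divergent pairs, with 95% counting intervals. The dashed line marks equal ratios, the red point was called higher and the blue point lower. Points lie on both sides of the line, and LINC00441 at -2.87 is the lowest.

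Shared exon sequence limits some members. Of the 150, in 32 some other gene, on the same or the opposite strand, overlaps 5% or more of the exon bases. Reads of bases shared across strands cannot be told apart if strand was not used in counting. In 9 of the 32, at least 5% is shared on the same strand, where using strand would not separate the reads either. LINC01270 and LINC01271 on chromosome 20 lie on opposite strands and share 44.2% and 59.2% of their exon bases. They had 430 and 508 reads and 439 and 528 reads, with ratios of -0.23 and -0.25, and the reads of their overlap may stand in both rows. Among the called members, 2 of 10 higher and 5 of 16 lower ones share at least 5%, where 32 of all 150 do. Without the 32, the median was -0.17, with 8 higher and 11 lower of 118 (6.78% and 9.32%). Over all genes kept the shares were 7.41% and 6.96%.

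NORAD, an abundant and mainly cytoplasmic lncRNA that binds Pumilio proteins, has 1 exon block on chromosome 20 and was lower in the IP at -1.21 (-1.24 to -1.17), with 9708 IP reads (402.0 CPM) and 22597 Input reads (927.6 CPM). The 150 members together had 28674 Input reads. With NORAD as a member, a choice made after seeing the data, the called-lower count was 17 of 151. Of all genes kept, 6.96% were called lower.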

How the data were processed

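Read counts per gene, as whole numbers with no normalization, were deposited by the authors together with exon coordinates and lengths. Per the submitters' processing notes, the tools were STAR 2.5.3a, fastp 0.23.4 and edgeR 3.12.1 with the GRCh38 build. How reads were assigned to genes, whether strand was used, and which annotation served were not given in the sources used here. Titles set the groups. NORAD was planned as a LINC00657 row but is listed as NORAD.

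From these counts, TMM factors were computed with edgeR 4.0.16 in R 4.3.3 over genes with at least 20 reads. The log2 ratio used a prior count of 0.5 and exact (Clopper-Pearson) 95% intervals of the IP share of reads, which cover counting error only. With 1 library per group no quasi-likelihood test exists. Exon blocks are merged exon intervals. Calls were tested on simulated counts drawn independently per gene, without mate pairs or variation between replicate libraries. That run cannot show how either affects the calls. Names, biotypes and promoters came from RefSeq (GRCh38.p14), whose promoter windows were matched by gene ID.

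Named genes were NORAD, the 10 members with the most reads, the 8 with the highest lower and 8 with the lowest upper bounds, 3 single-block members and the 3 with the most blocks among those with 100 or more reads, and the 3 with the most reads of each list. All other members named were chosen after their values were seen, as were the comparisons by RefSeq biotype, neighbour and promoter. The members and lists were chosen with earlier results of these data known. Alternatives were library totals, DESeq2 1.42.0 size factors, other read minimums, another prior count, pairs of reads and little shared sequence.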

Additional observations from a re-analysis of the deposited data

How the results depend on the processing

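No paired analysis was possible because each group held 1 library. The counts of called members followed the read minimum, since the minimum sets how many members are kept. TMM factors were recomputed at each minimum. At 50 reads 4 of 100 members were higher and 9 lower, against 976 and 809 of 15421 genes. At 100 reads 3 of 61 were higher and 4 lower, against 761 and 582 of 13718 genes. With no minimum beyond 1 read 32 of 360 were higher and 31 lower, against 2004 and 2013 of 27776 genes. On pairs of reads 5 of 150 were higher and 11 lower, since halved counts widen the intervals. Of all genes, 6.18% were higher and 5.36% lower on pairs. The median of the members with several exon blocks was -0.27 at 100 reads and -0.13 at 20, with 57 and 134 members. The median of those with 1 block was -0.05 at 100 reads, with 4 members. Library totals moved all ratios down by 0.106. They gave 9 higher and 20 lower of 150 members, against 1023 and 1561 of 17915 genes. Of the members' calls 31.0% were higher, against 38.5% with TMM. Over all genes 39.6% of calls were higher, against 51.6% with TMM. The members' median stood at -0.197 relative to that of all genes under both scalings, and at -0.266 at 100 reads and -0.05 with no minimum beyond 1 read. Of the 26 calls, 5 of 10 higher and 11 of 16 lower ones held under library totals, DESeq2 size factors, a prior count of 2 and pairs of reads alike. NORAD was called lower under each scaling, minimum, prior count and pairing. Restricting to RefSeq lncRNA genes gave 7 higher and 16 lower of 137, and adding NORAD gave 10 and 17 of 151. Both were chosen after seeing the data. Over all genes kept, 7.41% were higher and 6.96% lower. For members under 50 reads, counting intervals span several-fold, and depth limits any statement on them.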
